A study of Mus musculus with 6 samples.

Results

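The transcripts of Nfe2l2, which encodes the transcription factor NRF2, of Keap1, which encodes its inhibitor, and of 8 antioxidant and detoxification genes known as NRF2 targets were examined in mouse embryonic fibroblasts (MEFs). The 10 genes were listed by name (Nfe2l2, Keap1, Gclc, Gclm, Gsr, Txnrd1, Srxn1, Nqo1, Me1 and Osgin1), with earlier results of these data known, and are 10 of the 55291 genes counted. RNA-seq libraries of polyA RNA came from WT MEFs in 3 groups of 2 libraries, each numbered replicate 1 and replicate 2. MASM7 is a small molecule activator of mitofusins, the outer membrane proteins that fuse mitochondria, and was given at 1 μM for 6 h. MFI8 is a small molecule inhibitor of the same proteins and was given at 20 μM for 6 h. The third group received vehicle, for a time that the sources used here do not give. Concentrations and times were taken from the study's text, because the sample labels name the compound alone. The cells came to the authors from another laboratory, and the series describes the replicates as independent without naming separate embryos or cultures, so p-values measure the spread between these libraries.

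NRF2 is made continuously and, in unstressed cells, is held by KEAP1, an adaptor of the CUL3 ubiquitin ligase, and degraded. Electrophiles and oxidants modify cysteines of KEAP1, NRF2 then accumulates, and with a small MAF protein it binds antioxidant response elements near genes for glutathione synthesis, thioredoxin reduction, quinone reduction, NADPH supply and heme breakdown. NRF2 is thus controlled largely at the protein level, which RNA-seq does not measure.

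The promoter sequences show where the letters of such elements lie beside these genes. RefSeq windows on GRCm38.p6, from 250 bases before to 50 bases after a transcription start, were available for 8 of the 10 genes (not Gclc and Gsr) and numbered 11. The antioxidant response element core was searched as TGACNNNGC on both strands, and the AP-1 site, which can overlap it, as TGANTCA on both strands. The 7 sites below are the matches to either motif in these 11 windows that lie upstream of or over a start. Each is written 5′ to 3′ on the gene's strand with 10 bases on either side of the match, and capitals mark the match.
Nfe2l2, element core 240 bases before the start, chr2:75704885-75704913, minus strand: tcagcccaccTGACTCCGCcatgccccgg
Gclm, element core (reverse complement) 134 bases before the start, chr3:122245413-122245441, plus strand: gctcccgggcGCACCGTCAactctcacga
Txnrd1, element core (reverse complement) 92 bases before the start, chr10:82859104-82859132, plus strand: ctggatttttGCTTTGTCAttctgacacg
Me1, element core that contains an AP-1 site, over the start, chr9:86695902-86695930, minus strand: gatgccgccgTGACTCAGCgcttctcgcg
Srxn1, AP-1 site 102 bases before the start, chr2:152105412-152105438, plus strand: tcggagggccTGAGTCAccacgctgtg
Srxn1, AP-1 site 45 bases before the start, chr2:152105469-152105495, plus strand: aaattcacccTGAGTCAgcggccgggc
Osgin1, AP-1 site 97 bases before the start, chr8:119437040-119437066, plus strand: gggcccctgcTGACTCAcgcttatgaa

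The element core was found in 5 of the 11 windows (45.5%), those of Nfe2l2, Gclm, Txnrd1, Me1 and Srxn1, where the match lies 29 bases after the start. It was found in 12.4% of all 32851 windows and in 14.2% of the windows of genes tested here. The AP-1 site was found in 3 of the 11 windows (27.3%), those of Srxn1, Me1 and Osgin1, against 7.81% of all windows and 5.2% of those of genes tested. The xenobiotic response element core, searched as GCGTG on both strands, was in 7 of the 11 windows (63.6%), against 32.4% of all windows and 51% of those of genes tested. Of these 7 windows, 3 belong to Txnrd1. By gene, it was in 5 of the 8 genes with a window (62.5%), against 57% of the genes tested. In the windows of the other pathway genes described further on, the element core was in 11 of 48 (22.9%). These matches describe the letters in the windows and not binding. The antioxidant response element core of Txnrd1 lies in 1 of the 3 windows of that gene. No match in a window says only that the letters are not there.

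The libraries held between 22791792 and 30677751 counts on genes, and TMM scaling factors were 0.991 to 1.01. Of the 8 fibroblast markers, 5 were high, with Vim at 1966 to 2531 TPM and Col1a1 at 1106 to 1435 TPM (TPM is a level per length, which sums to the same total in each library), while Col3a1 (14.6 to 32.0 TPM) and Pdgfrb (11.6 to 19.5 TPM) were much lower and Thy1 did not exceed 0.751 TPM. The 9 markers of epithelial, leukocyte, endothelial and muscle cells summed to 0.631 to 0.668 TPM with vehicle, 0.332 to 0.762 TPM with MASM7 and 0.358 to 0.626 TPM with MFI8, and the leukocyte marker Adgre1 and the muscle marker Myog were at 0 in all 6 libraries. The share of counts on genes of the mitochondrial DNA was lower in both MFI8 libraries (1.37% and 1.43%) than in both vehicle libraries (1.66% and 1.82%), with MASM7 between them (1.61% and 1.51%), and its part in the results below was not tested. In bulk RNA, fewer cells that express a gene and less RNA of it per cell cannot be told apart.

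All 10 genes had counts in every library, and the levels of 8 of them lay well above those of Nqo1 and Osgin1. With vehicle, Txnrd1 had the highest level per length, 205 ± 0.410 TPM (SD, n = 2), followed by Srxn1 at 179 ± 3.0 TPM and Gsr at 153 ± 4.21 TPM. Me1 at 94.2 ± 4.78 TPM and Nfe2l2 at 91.4 ± 6.31 TPM overlapped, and Gclm (72.7 ± 5.34 TPM), Keap1 (66.5 ± 2.07 TPM) and Gclc (60.2 ± 3.60 TPM) came next without overlap between neighbours. Osgin1 at 7.82 ± 0.308 TPM and Nqo1 at 6.71 ± 2.02 TPM were lowest and overlapped. The order was the same with MASM7, where Gclm and Keap1 also overlapped and Me1 and Nfe2l2 did not. With MFI8, Gclm (83.3 ± 8.96 TPM) stood above Nfe2l2 (73.1 ± 2.07 TPM), and no neighbours overlapped. The 8 targets together came to 774 and 782 TPM with vehicle, 779 and 760 TPM with MASM7, and 836 and 886 TPM with MFI8. The sum was thus higher in both MFI8 libraries than in the other 4, while 1 MASM7 library lay between the vehicle libraries and the other below both.

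**Figure D1:**
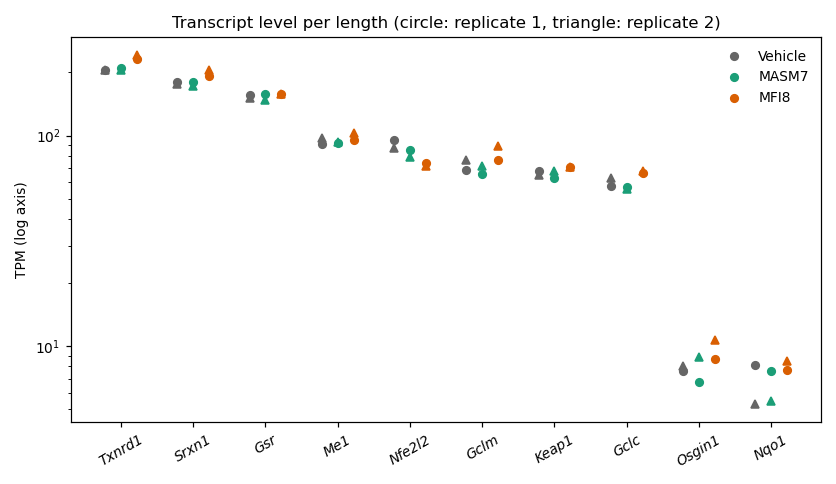
Level of each gene in TPM on a log axis, with 1 point per library (circles replicate 1, triangles replicate 2), coloured by group and ordered by the vehicle mean. Osgin1 and Nqo1 lie about an order of magnitude below the rest, and Nfe2l2 is the gene whose MFI8 points lie below both other groups.

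The first comparison asked how the NRF2 pathway stood after 6 h with MFI8. All libraries came from WT cells, so an effect through mitofusins and any other effect of a compound cannot be told apart. With MFI8, Nfe2l2 mRNA was lower than with vehicle in both replicates while the 8 target genes were all on the higher side, with small differences. The median log2 fold change was 0.15 over the 8 targets, 0.13 over all 10 genes and 0.0027 over all genes tested, of which 50.7% were above 0. The median of the 10 genes was 0.072 without MFI8 replicate 2. Tested with edgeR's quasi-likelihood method and adjusted by Benjamini and Hochberg over 14290 genes, 0 of the 10 passed at an adjusted p under 0.05, as did 0 (0%) of all genes tested. At an unadjusted p under 0.05, Txnrd1 and Srxn1 were higher and Nfe2l2 was lower, against 5.21% of all genes higher and 4.65% lower. With a term for the replicate number in the model (the replicate block), 3 of the 10 genes passed at an adjusted p under 0.05, with Txnrd1 and Gclm higher and Nfe2l2 lower, against 2.79% of all genes higher and 2.25% lower. DESeq2 without the block called 1 of the 10 genes, Nfe2l2, against 0.368% of genes, and limma on log2(TPM + 1) and log2(TPM + 0.1) called 0 of them, against 0.0544% and 0.129% of genes. Both MFI8 libraries lay above both vehicle libraries for 5 of the 10 genes (Keap1, Gclc, Txnrd1, Srxn1 and Osgin1) and below them for Nfe2l2, against 20.9% of all genes above and 19.3% below. An exact permutation test of 2 libraries against 2 cannot go below a two-sided p of 0.333.

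**Figure D2:**
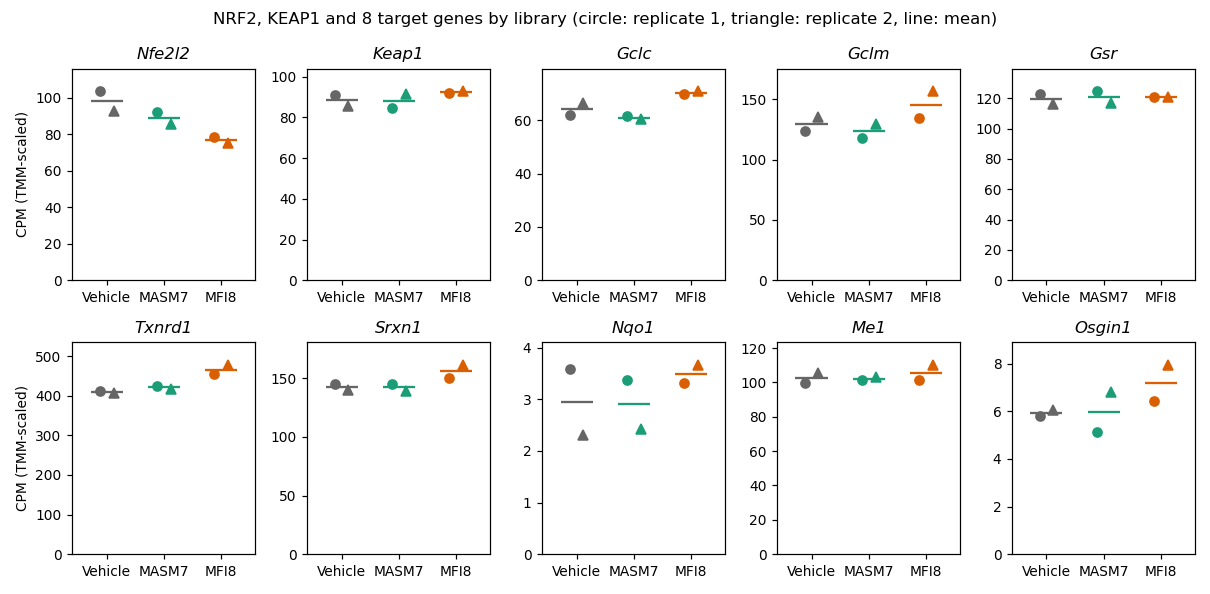
Normalised count of the 10 genes, as CPM, in each library, with the group mean as a line and each axis starting at 0. The MFI8 points of Nfe2l2 lie below all vehicle and MASM7 points, and those of Gclc, Txnrd1 and Srxn1 lie above them.

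Nfe2l2, on chromosome 2 (75675513 to 75704641, minus strand, GRCm38), encodes NRF2 itself. Its normalised count, as CPM (each library's counts scaled to a common total with TMM), was 104 and 92.8 CPM with vehicle, 92.3 and 85.9 CPM with MASM7, and 78.6 and 75.5 CPM with MFI8. The MFI8 libraries were the lowest of the 6, and both MASM7 libraries lay below both vehicle libraries, by a small margin. MFI8 gave a log2 fold change of -0.35 (SE 0.069), which is 0.784 of the vehicle level, with an edgeR adjusted p of 0.202. The edgeR adjusted p was 7.0e-05 with the replicate block, and DESeq2 without the block gave an adjusted p of 0.0239. Nfe2l2 was the 35th gene by p among all tested. The difference was -0.40 on the log2 scale between the replicate 1 libraries and -0.30 between the replicate 2 libraries. It kept its sign under all 18 alternatives, with log2 fold changes from -0.43 to -0.27, and it passed with the block whichever library was left out.

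Keap1, on chromosome 9 (21229730 to 21239361, minus strand), encodes the adaptor that brings NRF2 to the CUL3 ligase. It had 90.8 and 85.7 CPM with vehicle, 84.8 and 91.6 CPM with MASM7, and 92.1 and 92.8 CPM with MFI8. The MFI8 values were only just above the others, and vehicle and MASM7 overlapped. The log2 fold change with MFI8 was 0.067 (SE 0.061, edgeR adjusted p = 0.739), and it turned to -0.021 with offsets for the GC content and length of transcripts, an alternative chosen after seeing the data. The exons of Keap1 overlap those of Gm16754 on the opposite strand, and the strand setting of the counting is not stated. Within a library, the count of Nfe2l2 divided by that of Keap1 does not depend on the scaling of the library. This ratio was 1.14 and 1.08 in the vehicle libraries, 1.09 and 0.938 in the MASM7 libraries and 0.853 and 0.814 in the MFI8 libraries. Both MFI8 ratios were below the other 4, which overlapped between vehicle and MASM7.

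Among the glutathione genes, both subunits of glutamate-cysteine ligase, the rate-limiting enzyme of glutathione synthesis, had higher values with MFI8. Gclc, the catalytic subunit (chromosome 9, 77754535 to 77794485), had 61.8 and 66.4 CPM with vehicle, 61.6 and 60.3 CPM with MASM7, and 69.8 and 70.8 CPM with MFI8. Gclm, the modifier subunit (chromosome 3, 122245557 to 122270732), had 123 and 135 CPM with vehicle, 118 and 129 CPM with MASM7, and 135 and 157 CPM with MFI8. Gclc did not overlap between MFI8 and the other groups, while replicate 1 of Gclm with MFI8 lay just below replicate 2 with vehicle. The log2 fold changes with MFI8 were 0.13 (SE 0.061, edgeR adjusted p = 0.513) for Gclc and 0.17 (SE 0.082, edgeR adjusted p = 0.532) for Gclm. In each group Gclm was lower in replicate 1 than in replicate 2, and with the replicate block its edgeR adjusted p was 0.0336, against 0.184 for Gclc. With DESeq2 and the block, Gclm did not pass (adjusted p = 0.0866). Exons of Gclm overlap Gm17494 on the opposite strand and Gm6061 on the same strand, so part of its count may belong to them. Gsr, glutathione reductase, which returns oxidised glutathione to its reduced form (chromosome 8, 33652523 to 33698163), did not follow. It had 123 and 116 CPM with vehicle, 125 and 117 CPM with MASM7, and 121 and 120 CPM with MFI8, with a log2 fold change of 0.013 (SE 0.057) for MFI8 and of -0.023 without Vehicle replicate 2.

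For both genes of the thioredoxin branch, the MFI8 libraries held the highest values of the 6. Txnrd1, cytosolic thioredoxin reductase (chromosome 10, 82833951 to 82897712), had 412 and 408 CPM with vehicle, 426 and 417 CPM with MASM7, and 454 and 477 CPM with MFI8. The MASM7 values were also above both vehicle values, by less than the MFI8 values were. The log2 fold change with MFI8 was 0.18 (SE 0.050, edgeR adjusted p = 0.349, and 0.0121 with the replicate block), the smallest p among the targets. Srxn1, sulfiredoxin, which restores overoxidised peroxiredoxins (chromosome 2, 152105516 to 152111376), had 145 and 140 CPM with vehicle, 145 and 139 CPM with MASM7, and 151 and 161 CPM with MFI8. Vehicle and MASM7 overlapped for this gene, and MFI8 replicate 2 was the highest. Its log2 fold change with MFI8 was 0.13 (SE 0.057, edgeR adjusted p = 0.489, and 0.115 with the replicate block).

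The calls of Txnrd1 and Gclm with the block were lost when some libraries were left out. Without Vehicle replicate 2, MFI8 replicate 1 or MFI8 replicate 2, the blocked test called 1 of the 10 genes, Nfe2l2, and it called 4 without MASM7 replicate 1. The share of all genes called moved too, to 1.57%, 2.27% and 1.09% in the first 3 of these fits and to 7.6% in the last, against 5.04% with all libraries. In the unblocked fits without those 3 libraries, in the same order, the log2 fold change was 0.18, 0.22 and 0.15 for Txnrd1 and 0.24, 0.28 and 0.056 for Gclm. Each of these fits has a group of 1 library, and loss of power and dependence on the library were not tested apart. The log2 fold changes of Gclc, Gclm, Txnrd1 and Srxn1 stayed above 0 under all 18 alternatives, with Gclc at 0.085 without Vehicle replicate 1 and Srxn1 at 0.081 without MFI8 replicate 2. Between the replicate 1 libraries 6 of the 8 targets were higher with MFI8, with a median difference of 0.089 on the log2 scale, and between the replicate 2 libraries 8 of 8 were, with a median of 0.21.

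The NADPH and quinone genes gave no difference beyond the spread. Me1, cytosolic malic enzyme, which makes NADPH (chromosome 9, 86581371 to 86695953, minus strand), had 99.5 and 106 CPM with vehicle, 101 and 103 CPM with MASM7, and 101 and 110 CPM with MFI8. The groups overlapped, and the log2 fold change with MFI8 was 0.046 (SE 0.061), and -0.015 without MFI8 replicate 2. Its exons overlap A330041J22Rik on the opposite strand. Nqo1, the quinone reductase often used as a readout of NRF2 (chromosome 8, 107388225 to 107403206, minus strand), was close to the bottom of the range in these cells, with 82 and 58 counts with vehicle, 100 and 74 counts with MASM7, and 76 and 113 counts with MFI8. These counts correspond to 3.60 and 2.31 CPM, 3.38 and 2.43 CPM, and 3.31 and 3.66 CPM. Vehicle and MASM7 each had a wide spread between replicates, their replicate 1 values lay between the MFI8 values, and the log2 fold change with MFI8 was 0.25 (SE 0.25, edgeR adjusted p = 0.777), and -0.039 without Vehicle replicate 2. The log2 fold change of Nqo1 was thus no larger than its SE, and the part that low depth had in this was not tested.

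Osgin1, a stress-induced growth inhibitor (chromosome 8, 119434124 to 119446256), had the largest log2 fold change of the 8 targets with MFI8, 0.29, but was also counted at low depth. It had 132 and 152 counts with vehicle (5.79 and 6.04 CPM), 152 and 207 with MASM7 (5.14 and 6.80 CPM), and 148 and 245 with MFI8 (6.45 and 7.94 CPM). The MFI8 libraries lay above both vehicle libraries, and MFI8 replicate 1 lay below MASM7 replicate 2. The SE was 0.18 and the edgeR adjusted p was 0.613, or 0.274 with the replicate block. Without MFI8 replicate 2 its log2 fold change was 0.12, below those of Nqo1 (0.17) and Txnrd1 (0.15) in that fit, and without Vehicle replicate 1 Nqo1 (0.60) was above Osgin1 (0.26). With DESeq2 and the block Nqo1 (0.283) was also above Osgin1 (0.276).

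**Figure D3:**
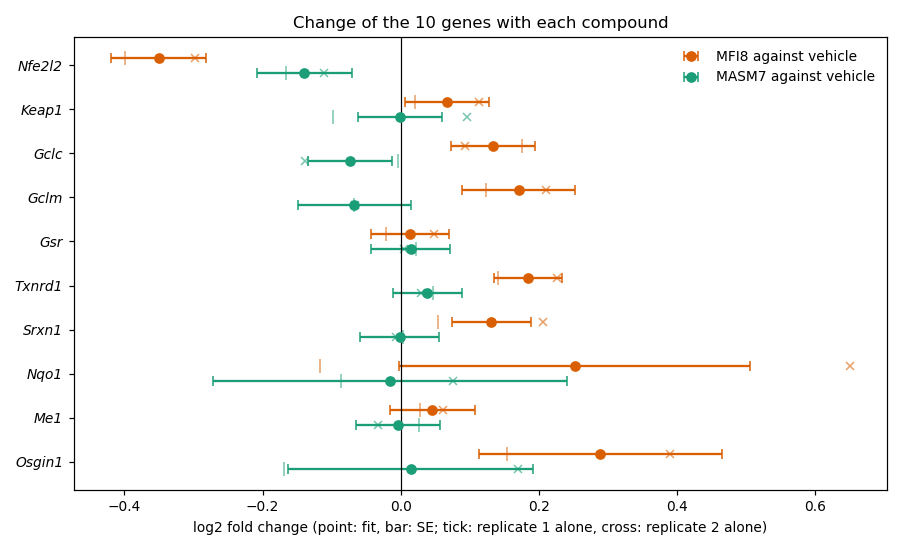
Log2 fold change against vehicle of the 10 genes for MFI8 and MASM7, with the fitted value and its SE, and the differences of the replicate 1 libraries (ticks) and replicate 2 libraries (crosses) alone. The values for Nfe2l2 are below 0 for both compounds, the fitted MFI8 values of the 8 targets are above 0 (the replicate 1 differences of Gsr and Nqo1 are not), and the widest bars are those of Nqo1 and Osgin1.

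The second comparison asked the same after treatment with MASM7. It used the same vehicle libraries, so the values of the compounds are given side by side and their likeness is not tested. With MASM7, 3 of the 10 were on the higher side and 7 on the lower, with a median log2 fold change of -0.0030, against 0.00067 over all genes tested, of which 50.1% were above 0. By edgeR's quasi-likelihood test 0 of the 10 passed at an adjusted p under 0.05, as did 0 (0%) of all genes. None of the 10 had an unadjusted p under 0.05, against 5.32% of all genes higher and 4.88% lower. With the replicate block 0 of the 10 passed, against 2.48% of all genes higher and 1.39% lower, and DESeq2 and limma called 0 of them, against 0.00747% of genes with DESeq2 and 0.0952% and 0.122% with limma. Txnrd1 lay above both vehicle libraries, against 21.2% of all genes, and Nfe2l2 and Gclc lay below them, against 21.6%.

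Of the 10 genes, Nfe2l2 had the smallest p with MASM7, at a log2 fold change of -0.14 (SE 0.069, edgeR adjusted p = 0.509, and 0.115 with the replicate block). Its value with MASM7 thus lay between vehicle and MFI8, below 0 under all 18 alternatives, and it was -0.059 without Vehicle replicate 1. Gclc was at -0.073 (SE 0.061, and -0.019 without Vehicle replicate 2), Gclm at -0.067 (SE 0.082) and Txnrd1 at 0.038 (SE 0.050). The sign was the same under all 18 alternatives for Gclc and Txnrd1, and for Gclm it turned to 0.0012 without Vehicle replicate 2 and to 0.026 with the GC and length offsets. Keap1, Gsr, Srxn1, Me1, Nqo1 and Osgin1 lay between -0.015 and 0.014 on the log2 scale, with SEs between 0.057 and 0.26, and their signs changed with the library left out.

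The third comparison set MFI8 directly against MASM7. The time was the same but the concentrations were 20 μM and 1 μM, so compound and concentration cannot be told apart. MFI8 was higher for 8 of the 10 genes, with a median log2 fold change of 0.14. Over all 14290 genes tested it was higher for 7071, with a median of -0.0015. The quasi-likelihood test of edgeR gave 0 of the 10 genes, and 0 (0%) of all genes, an adjusted p under 0.05. At an unadjusted p under 0.05, 4 were higher with MFI8 (Gclc, Gclm, Txnrd1 and Srxn1), against 4.23% of all genes, and Nfe2l2 was lower, against 2.95%. With the replicate block Gclc and Gclm passed as higher, against 1.76% of all genes, and Nfe2l2 as lower, against 1.31%. The edgeR adjusted p with the block was 0.0355 for Gclc at a log2 fold change of 0.21, 0.0031 for Gclm at 0.24, and 0.0196 for Nfe2l2 at -0.21. Both MFI8 libraries lay above both MASM7 libraries for 5 of the 10 genes and below them for 1, Nfe2l2, against 19.6% of all genes in each direction. The count of 3 passing with the block became 0 without MASM7 replicate 2 or MFI8 replicate 2, 1 without MFI8 replicate 1 and 5 without Vehicle replicate 1. Of all genes, these fits called 0.965%, 0.794%, 1.57% and 5.32%, against 3.07% with all libraries. In the unblocked fits without MASM7 replicate 2 and without MFI8 replicate 2, the log2 fold change was 0.19 and 0.20 for Gclc, 0.31 and 0.12 for Gclm, and -0.26 and -0.18 for Nfe2l2. DESeq2 called 0 of the 10 genes without the block, against 0.231% of genes, and with the block it called Gclm (adjusted p = 0.0231) and neither Gclc (0.334) nor Nfe2l2 (0.170), against 1% of genes.

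A further 40 genes of the NRF2 pathway were listed by their known roles, of which 38 had enough counts to be tested (not Gsta3 and Mgst1). With MFI8, Hmox1 of heme breakdown, Slc7a11 of cystine uptake and the autophagy adaptor Sqstm1 had log2 fold changes of 1.31, 0.86 and 0.49. Gsta2 and Cbr3, at low counts, were at 0.75 (SE 0.64) and 0.73 (SE 0.38). The highest among the 8 targets above was 0.29. Of the 38, 26 were higher and 12 lower, with a median log2 fold change of 0.10, against 0.15 over the 8 targets. In edgeR's quasi-likelihood test 0 had an adjusted p under 0.05 (the smallest was 0.0924), 9 were higher and 2 lower at an unadjusted p under 0.05 (5.21% and 4.65% of all genes), and with the replicate block 7 passed as higher and 1 as lower (2.79% and 2.25% of all genes). DESeq2 without the block called 4 of them, Mafg, Sqstm1, Slc7a11 and Slc48a1, against 0.368% of genes. Both MFI8 libraries lay above both vehicle libraries for 17 of the 38 and below them for 5, against the 20.9% and 19.3% of all genes given above. With MASM7, 25 were higher and 13 lower, with a median of 0.038, 0 higher and 2 lower at an unadjusted p under 0.05 (5.32% and 4.88% of all genes), and 1 gene, Hmox1, passing with the block as higher (2.48% of all genes). For MFI8 the 8 passing with the block became 4 without MFI8 replicate 2 and 12 without MASM7 replicate 1, in fits that called 1.09% and 7.6% of all genes, and Hmox1, Slc7a11, Sqstm1 and Slc48a1 passed whichever library was left out. Mafg and Maff did not pass without MFI8 replicate 2. Without the block, the count of 0 became 4 without MFI8 replicate 1 (Maff, Sqstm1, Slc7a11 and Hmox1) and 1 without MFI8 replicate 2 (Hmox1), in fits that called 0.172% and 0.0411% of all genes.

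**Figure D4:**
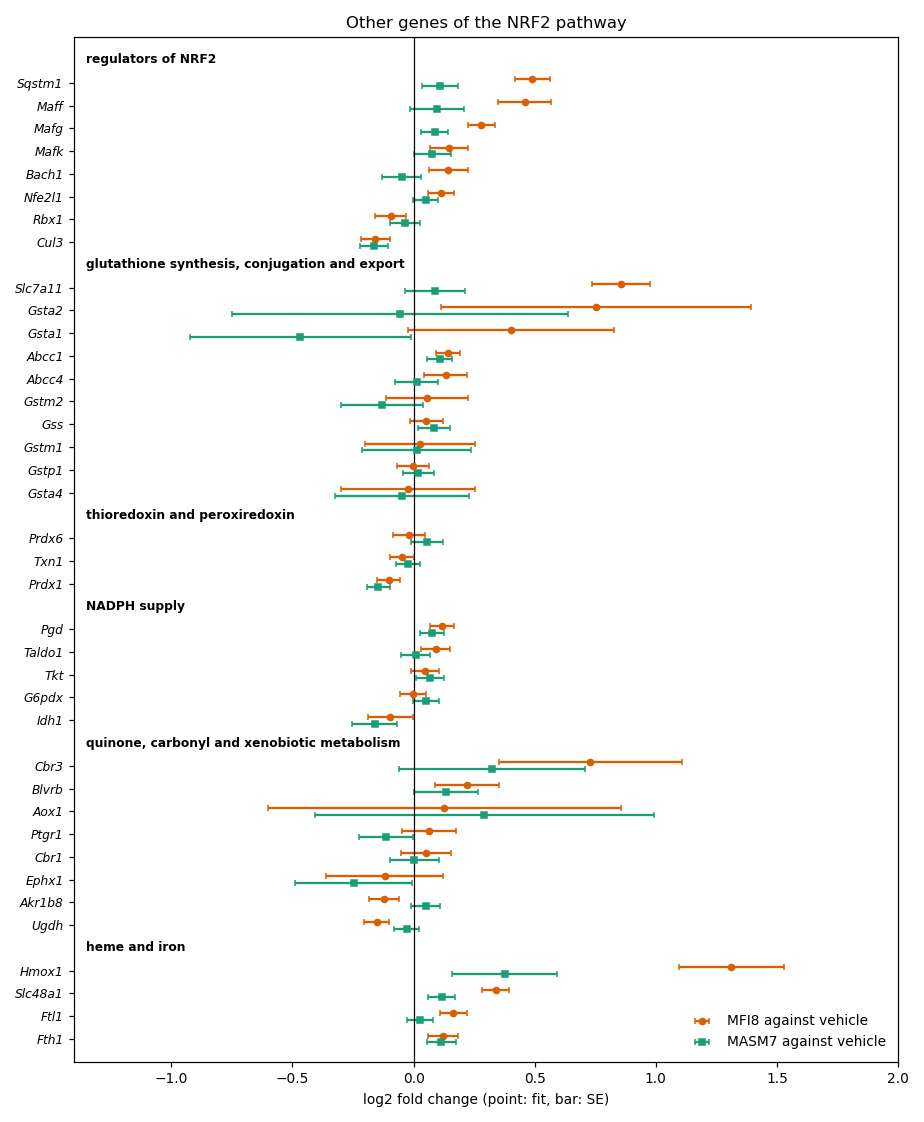
Log2 fold change against vehicle, with its SE, of the 38 other pathway genes tested, in 6 groups by role, for MFI8 (circles) and MASM7 (squares). Hmox1, Slc7a11, Sqstm1 and Maff lie farthest to the right for MFI8 among the genes with narrow bars, and the widest bars belong to Gsta1, Gsta2 and Aox1.

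Hmox1, heme oxygenase, which breaks heme down to biliverdin, iron and carbon monoxide, had 35.0 and 41.4 CPM with vehicle, 44.9 and 54.3 CPM with MASM7, and 68.5 and 121 CPM with MFI8. The groups did not overlap, and vehicle was lowest and MFI8 highest in both replicates. The log2 fold change with MFI8 was 1.31 (SE 0.22, edgeR adjusted p = 0.0924, and 8.9e-11 with the replicate block). Without MFI8 replicate 2 the log2 fold change was 0.84. DESeq2 without the block gave an adjusted p of 0.0614, and with the block its filter on low means left Hmox1, Slc7a11 and Maff without an adjusted p. With MASM7 the log2 fold change of Hmox1 was 0.38 (SE 0.22, edgeR adjusted p = 0.564, and 0.0170 with the block). This call with the block was lost without Vehicle replicate 2 or MASM7 replicate 1, in fits with a group of 1 library. In the unblocked fits without them the log2 fold change was 0.50 and 0.51. Its log2 fold change with MASM7 was 0.23 without MASM7 replicate 2. Slc48a1, a heme transporter, had 215 and 209 CPM with vehicle, 226 and 233 CPM with MASM7, and 258 and 278 CPM with MFI8. It stood in the same order without overlap, at a log2 fold change of 0.34 with MFI8 (SE 0.055, edgeR adjusted p = 1.5e-05 with the block) and of 0.12 with MASM7 (SE 0.055, edgeR adjusted p = 0.139 with the block). All 4 genes of heme and iron handling were higher with MFI8 (50.7% of all genes were), and 3 passed with the block as higher (2.79%). With MASM7 all 4 were higher (50.1% of all genes were), and 1 passed with the block as higher (2.48%). The third to pass with MFI8 was Ftl1, the ferritin light chain, named after its value was seen, at 0.16 (SE 0.055, edgeR adjusted p = 0.0366 with the block). Ftl1 did not pass with the block without Vehicle replicate 2 (6 of the 38 passing), MFI8 replicate 1 (6) or MFI8 replicate 2 (4), and its count can be shared with the pseudogenes Ftl1-ps1 and Ftl1-ps2. The exons of Slc48a1 overlap those of Hdac7 on the opposite strand.

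Slc7a11, the cystine transporter subunit that feeds glutathione synthesis, had 11.7 and 12.8 CPM with vehicle, 13.6 and 12.4 CPM with MASM7, and 19.8 and 24.3 CPM with MFI8. MFI8 was well above the other groups, which overlapped. The log2 fold change with MFI8 was 0.86 (SE 0.12, edgeR adjusted p = 0.0924, and 1.7e-06 with the replicate block), against 0.13 for Gclc and 0.17 for Gclm of the same route. With MASM7 it was 0.088 (SE 0.12). The further list holds 10 tested genes of glutathione synthesis, conjugation and export, without Gclc and Gclm. With MFI8 and the block 1 of them passed, Slc7a11, against 2.79% of all genes as higher.

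Among the regulators of NRF2, Sqstm1, the autophagy adaptor p62, which binds KEAP1, had 224 and 204 CPM with vehicle, 237 and 224 CPM with MASM7, and 281 and 320 CPM with MFI8. The log2 fold change with MFI8 was 0.49 (SE 0.074, edgeR adjusted p = 0.0924, and 9.2e-07 with the replicate block). Its exons overlap Mrnip on the opposite strand. The small MAF partner Mafg had 144 and 138 CPM with vehicle, 152 and 148 CPM with MASM7, and 167 and 176 CPM with MFI8, a log2 fold change of 0.28 (SE 0.054, edgeR adjusted p = 3.2e-04 with the block). Maff, another small MAF, had 29.0 and 30.1 CPM with vehicle, 31.1 and 32.1 CPM with MASM7, and 35.3 and 45.6 CPM with MFI8, a log2 fold change of 0.46 (SE 0.11, edgeR adjusted p = 2.7e-04 with the block), and of 0.26 without MFI8 replicate 2. Both MFI8 libraries were thus above all 4 others for Sqstm1, Mafg and Maff. The exons of Mafg overlap those of Sirt7 on the same strand. Cul3, the ligase scaffold, was at -0.16 with both MFI8 (SE 0.058) and MASM7 (SE 0.058), with edgeR adjusted p of 0.0543 and 0.0510 with the block.

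The thioredoxin and peroxiredoxin genes on the list (Txn1, Prdx1 and Prdx6) were all on the lower side with MFI8. With the replicate block 0 of the 3 passed, against 2.79% of all genes as higher and 2.25% as lower. Prdx1, the peroxiredoxin that uses thioredoxin, had 475 and 494 CPM with vehicle, 440 and 436 CPM with MASM7, and 448 and 454 CPM with MFI8. Its vehicle libraries were the highest of the 6, and the log2 fold changes were -0.15 with MASM7 (SE 0.048, edgeR adjusted p = 0.473) and -0.10 with MFI8 (SE 0.048, edgeR adjusted p = 0.521). With the block the edgeR adjusted p was 0.0526 with MASM7 and 0.178 with MFI8. For MASM7, DESeq2 with the block called Prdx1 (adjusted p = 0.0269), against 7.41% of the 2765 genes with an adjusted p. The edgeR test with the block did so without Vehicle replicate 1 or MASM7 replicate 1, in fits with a group of 1 library. In the unblocked fits without them Prdx1 was at -0.17 and -0.15 with MASM7. Of the 5 genes of NADPH supply, 3 were higher and 2 lower with MFI8. With the block 0 passed, against the same 2.79% and 2.25% of all genes. Of the 8 genes of quinone, carbonyl and xenobiotic metabolism, 5 were higher and 3 lower with MFI8. With the block 1 passed as lower, against 2.25% of all genes. This was Ugdh, which makes UDP-glucuronate and is named after its value was seen, at -0.15 (SE 0.051, edgeR adjusted p = 0.0447). Ugdh did not pass without Vehicle replicate 2, MFI8 replicate 1 or MFI8 replicate 2, nor with DESeq2 and the block (adjusted p = 0.0774).

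The other pathway genes were also compared between the compounds directly, with the same limit on concentration. Of the 38, 28 were higher with MFI8 than with MASM7, with a median log2 fold change of 0.063, and 6 passed with the replicate block as higher and 0 as lower, against 1.76% and 1.31% of all genes. The log2 fold change was 0.94 for Hmox1 (edgeR adjusted p = 5.5e-08 with the block), 0.77 for Slc7a11 (8.1e-06), 0.38 for Sqstm1 (4.5e-05), 0.36 for Maff (0.0038), 0.22 for Slc48a1 (0.0034) and 0.19 for Mafg (0.0160). The count of 6 became 4 without MASM7 replicate 2 and 2 without MFI8 replicate 2 (Slc7a11 and Hmox1), where Hmox1 was at 0.47. DESeq2 with the block called Slc7a11, Hmox1 and Slc48a1, and not Sqstm1 (adjusted p = 0.143), Maff (0.143) or Mafg (0.112).

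Closeness of pattern over the 6 libraries was measured by the root mean square difference of log2 CPM relative to the vehicle mean. Of the 10 genes listed first, Nfe2l2 and Osgin1 had the largest absolute log2 fold changes with MFI8. For each, the closest genes outside that list were found. For Nfe2l2 these were Etfbkmt (0.045), Apoo-ps (0.048) and Gm15500 (0.049), with log2 fold changes of -0.32, -0.35 and -0.32 with MFI8. For Osgin1 they were Gm45871 (0.041), Syngr3 (0.049) and Gm37565 (0.058), with 0.27, 0.24 and 0.34 with MFI8. Only Gm15500 among these averaged above 10 CPM (39.8 CPM), and a close pattern over 6 libraries is a description.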

How the data were processed

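RNA-seq of WT MEFs was used, with 2 libraries each for vehicle, MASM7 and MFI8. The authors deposited raw counts per gene, made with featureCounts after trimming (Trimmomatic) and alignment by STAR to GRCm38; the strand setting and annotation release are not given in the sources used here. The TPM values deposited by the authors were used for levels per length, and their normalized counts were not used.

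Raw counts were fitted in edgeR 4.0.16 (R 4.3.3) over all 6 libraries, with TMM scaling, filterByExpr (14290 of 55291 genes kept, all 10 members among them), and 1 coefficient per group. Genes were tested by quasi-likelihood and adjusted by the Benjamini-Hochberg method, with a threshold of 0.05, and the common dispersion was 0.00394. CPM used TMM factors, and the SE was the absolute log2 fold change over the square root of F. Alternatives were DESeq2 1.42.0, limma 3.58.1 on log2(TPM + 1) and log2(TPM + 0.1), other scalings and filters, the replicate block, and leaving out each library, which leaves 1 sample in a group that is assumed to vary like the others. Offsets for GC content and transcript length (lowess, span 0.3), and the alternatives for single genes in MFI8 against MASM7, were added after seeing the data. Scripts were tested on simulated data.

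The pairing comes from the replicate numbers in the labels alone, since no source names a shared batch or day, and it was adopted because the replicate 2 minus replicate 1 differences correlated across genes at r = 0.188 (vehicle and MASM7), 0.152 (vehicle and MFI8) and 0.165 (MASM7 and MFI8), each over 0.1. Over the 7145 genes with the highest mean level, r was 0.508, 0.621 and 0.538 in the same order. Replicates of each group differed by more than sampling noise. Members and gene lists were chosen with earlier results of these data known. All members are named. Other pathway genes are named when among the 3 smallest p against vehicle for either compound, or among the 6 smallest p that pass with the block. For the 2 members with the largest change with MFI8, the 3 genes with the closest pattern are named.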

Additional observations from a re-analysis of the deposited data

How the results depend on the processing

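With MFI8, Nfe2l2, Gclc, Gclm, Txnrd1, Srxn1 and Osgin1 kept their direction under all 18 alternatives. For MFI8 against vehicle, the filter on low means in DESeq2 with the block left Gclc, Nqo1 and Osgin1 without an adjusted p. The count of the 10 genes called for MFI8 against vehicle, 0 as reported, was 1 with no filter beyond 1 count in any library, 3 with the replicate block, 1 with DESeq2, 2 with DESeq2 and the block, and 3 with the block and the GC and length offsets, and these settings called 0.957%, 5.04%, 0.368%, 5.88% and 4.16% of the 26760, 14290, 13049, 3744 and 14290 genes with an adjusted p. In the same order the other pathway genes called were 6, 8, 4, 4 and 10, and leaving out 1 library gave 0 to 4, with 4 without MFI8 replicate 1 and 1 without MFI8 replicate 2. Leaving out 1 library under the block gave 1 to 4 of the 10 genes. For MFI8 against MASM7, the 10 genes gave 3 with the block, 1 with DESeq2 and the block, and 5 with the block and the offsets (3.07%, 1% and 4.72% of genes with an adjusted p), and 0 to 5 when 1 library was left out under the block. The other pathway genes gave 4 with no filter (0.628% of genes), 6 with the block, 2 with DESeq2 (0.231% of genes), 3 with DESeq2 and the block, and 9 with the block and the offsets. Without MFI8 replicate 1 the unblocked log2 fold change was 1.28 for Hmox1, 0.91 for Slc7a11 and 0.48 for Sqstm1. Without MFI8 replicate 2 these were 0.47, 0.61 and 0.28. For MASM7 against vehicle, 1 other pathway gene was called with no filter (0.475% of genes), 1 with the block (3.88%), and 1 with DESeq2 and the block (7.41% of 2765 genes), the first 2 being Hmox1 and the last Prdx1, and 0 with the block and the offsets (1.06%). The cause was not tested.

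Among the other pathway genes larger changes also turned. Gsta1, at low counts, was at 0.40 with MFI8 and at -0.040 without MFI8 replicate 1. With MASM7 Gsta1 was at -0.47, and at 0.033 without Vehicle replicate 1. Among the 10 genes, the directions that changed belonged to log2 fold changes that were not called, of which the largest was Nqo1 with MFI8 at 0.25. With the offsets, without and then with the block, Keap1 with MFI8 was at -0.021 and -0.022. With MASM7 the median of the 10 genes was -0.029 and -0.029, Gclm 0.026 and 0.026, Gsr -0.0012 and -0.0018, Nqo1 0.011 and 0.012, Me1 0.044 and 0.044, and Osgin1 -0.12 and -0.13, and Gsr for MFI8 against MASM7 was 0.0031 and 0.0056. With no filter, MASM7 gave Keap1 0.019, Srxn1 0.018, Nqo1 0.0049 and Me1 0.015. Keap1 with MASM7 was 0.00050 with DESeq2's size factors, 0.00050 with DESeq2, and 0.00015 with DESeq2 and the block. With limma on log2(TPM + 1) and log2(TPM + 0.1), Gsr with MASM7 was -0.0026 and -0.0027, Osgin1 with MASM7 -0.013 and -0.016, and Gsr for MFI8 against MASM7 0.043 and 0.043. The last was also 0.021 with library size alone, 0.0018 with only these groups fitted, and 0.00080 with the block. Leaving out 1 library gave, for MFI8, Gsr -0.023 to 0.053, Nqo1 -0.039 to 0.60 and Me1 -0.015 to 0.10. For MASM7 it gave a median of -0.037 to 0.0043, Keap1 -0.057 to 0.055, Gclm -0.13 to 0.0012, Gsr -0.032 to 0.060, Srxn1 -0.033 to 0.030, Nqo1 -0.31 to 0.33, Me1 -0.046 to 0.040 and Osgin1 -0.20 to 0.20. For MFI8 against MASM7 it gave Gsr -0.046 to 0.046 and Me1 -0.011 to 0.11.

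Scaling by library size alone moved the median of all genes by 0.0106 with MFI8 and by -0.0109 with MASM7. With 2 libraries a group, calls rest on the spread shared over genes. Of the 10 genes, Nqo1 and Osgin1, at 58 to 245 counts, were measured with the least precision.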
